A study of Mus musculus with 6 samples.

Results

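The genes of the major histocompatibility complex (MHC) and of antigen processing were examined in Dnmt3a KO and control (WT) ectopic lesions of a mouse endometriosis model. All genes with a symbol beginning with H2- were taken, together with B2m, Tap1, Tap2, Tapbp, Cd74, Ciita, Nlrc5, Psmb8, Psmb9 and Psmb10, which gave 55 of the 56884 genes in the count table. They comprise 45 H2- genes and 10 others, and 50 of the 55 lie on chromosome 17. Bulk RNA-seq was available for 3 WT and 3 KO lesions, each sequenced as 1 library. WT lesions grew from uterine fragments of floxed female donors (Dnmt3a f/f), and KO lesions from donors that also carried Cre under the progesterone receptor gene (Dnmt3a f/f:PR-Cre/+), so Dnmt3a is deleted only in donor cells that express or once expressed this receptor. Donors of the 2 groups were of the same age according to the methods, which list as many donors as lesions in each group. In both groups the recipients were wild-type C57BL/6J females carrying an estrogen pellet, and the labels give 4 weeks as the time. Leukocytes and vessels that enter a lesion from the recipient therefore keep Dnmt3a, and RNA of donor and recipient cells was sequenced together. The paper's methods describe the transfer and its duration differently, and no comparison here uses that time.

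MHC class I molecules display peptides made in the cytosol to CD8 T cells on nearly every nucleated cell. Their heavy chain pairs with beta-2 microglobulin, encoded by B2m. The immunoproteasome cuts the peptides, the TAP transporter carries them into the endoplasmic reticulum and tapasin helps to load them. MHC class II molecules display peptides from endosomes to CD4 T cells, mainly on dendritic cells, macrophages and B cells, and on other cells after exposure to interferon gamma. The invariant chain Cd74 occupies the new class II groove, and the H2-DM molecule then exchanges its remnant for antigenic peptide. The coactivators Nlrc5, for class I, and Ciita, mainly for class II, do not bind DNA alone but assemble on proteins that hold the X and Y boxes of MHC promoters. Dnmt3a is a DNA methyltransferase that places new methyl groups on cytosines. In ectopic lesions, macrophages and other infiltrating leukocytes are a known source of class II molecules.

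The X and Y boxes were read from RefSeq promoter windows of GRCm38.p6, from 250 bases before to 50 bases after each annotated start, which were available for 38 of the 55 genes. Where a gene has several listed starts, as H2-K1 does, the one listed first is shown. The stretches below, 5′ to 3′ on the gene's strand, are shown because they let a class I promoter be read beside a class II promoter. Capitals mark the core of the X2 box (TGANG), the core of the Y box (ATTGG), with the X2 core nearer the Y core where cores overlap, and, where present, the NF-kappa B site of the class I enhancer A (GGGGATTCCCC).
H2-K1, chr17:34000348-34000488, - strand: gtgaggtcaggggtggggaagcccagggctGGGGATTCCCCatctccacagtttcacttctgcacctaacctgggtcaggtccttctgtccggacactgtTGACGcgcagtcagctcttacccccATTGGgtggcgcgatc
H2-D1, chr17:35262893-35263042, + strand: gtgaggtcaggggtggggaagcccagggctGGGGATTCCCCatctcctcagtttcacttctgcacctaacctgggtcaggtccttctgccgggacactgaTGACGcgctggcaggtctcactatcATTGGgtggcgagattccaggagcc
H2-Q4, chr17:35379410-35379562, + strand: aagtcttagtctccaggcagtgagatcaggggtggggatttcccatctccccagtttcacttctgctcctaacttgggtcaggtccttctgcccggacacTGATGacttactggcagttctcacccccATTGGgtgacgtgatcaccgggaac
B2m, chr2:122147509-122147658, + strand: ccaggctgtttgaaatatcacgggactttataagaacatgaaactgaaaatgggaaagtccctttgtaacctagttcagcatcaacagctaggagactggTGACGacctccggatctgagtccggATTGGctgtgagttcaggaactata
H2-Aa, chr17:34287847-34287997, - strand: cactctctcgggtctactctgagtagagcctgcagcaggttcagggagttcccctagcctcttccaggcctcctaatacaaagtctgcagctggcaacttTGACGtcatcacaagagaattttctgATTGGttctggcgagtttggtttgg
H2-Eb1, chr17:34305684-34305832, + strand: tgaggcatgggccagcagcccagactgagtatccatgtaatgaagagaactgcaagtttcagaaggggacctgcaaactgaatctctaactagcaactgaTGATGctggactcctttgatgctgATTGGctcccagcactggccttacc
H2-DMb1, chr17:34153005-34153154, + strand: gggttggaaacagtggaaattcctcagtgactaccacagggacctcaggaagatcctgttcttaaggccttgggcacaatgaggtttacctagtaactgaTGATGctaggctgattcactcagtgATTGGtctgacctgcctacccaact

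In these promoters the X2 and Y cores lay 19 to 23 bases apart. H2-K1 and H2-D1 carried the same enhancer A letters upstream of the pair, whereas H2-Aa, H2-Eb1 and H2-DMb1 had none within their windows. Over all member promoters, an X2 core followed on the same strand by a Y core after 18 to 24 bases (both strands searched) was found in 12 of 38, against 608 of 32544 distinct RefSeq promoter windows (1.87%). The pair was present in both classical class I promoters, in B2m, in all 3 class II structural promoters of the reference, in 2 of 5 peptide exchange promoters and in 4 of 21 nonclassical class I promoters. The enhancer A letters were read from the H2-K1 promoter, so its own match was given in advance. These exact letters occurred in 3 of 38 member promoters (H2-K1, H2-D1 and H2-Q6) and in 0.0307% of all windows. Near matches were not counted. An interferon response-like motif, GAANNGAAA on either strand, occurred in 8 of 38 member promoters and 7.57% of all windows. Alone, the X2 core was found in 37 of 38 member promoters and 89.4% of all windows, so it says little by itself. The Y core was found in 32 of 38 member promoters and 37.4% of all windows. These matches are descriptions of letters and were not related to binding or methylation, which were not measured here.

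**Figure D1:**
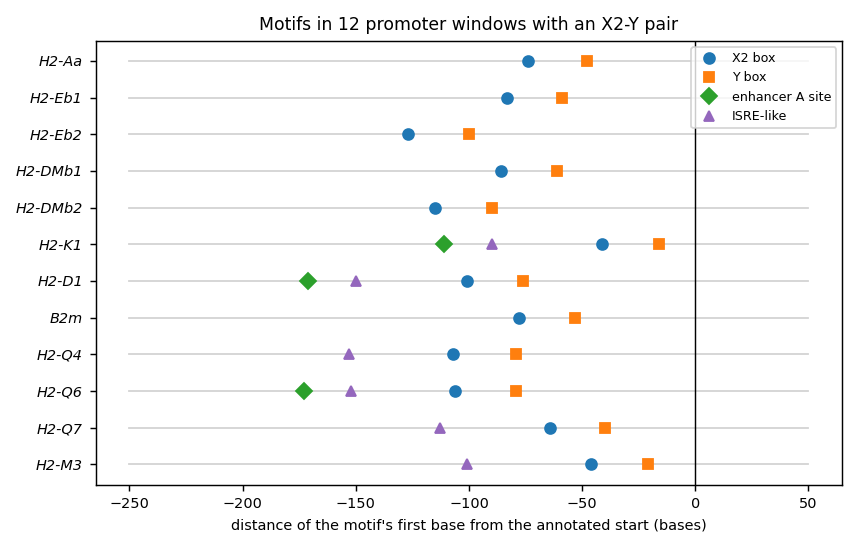
Positions of 4 motifs in the 12 member promoters that hold an X2 and a Y core 18 to 24 bases apart, as the distance in bases of the motif's first base from the annotated start (grey lines, the window searched). The Y core lies downstream of the X2 core in each promoter. The exact enhancer A letters, read from H2-K1, appear only in H2-K1, H2-D1 and H2-Q6 of these 12.

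The libraries held between 45370342 and 57239184 counts. Dnmt3a, the targeted gene, was at 52.7, 43.9 and 51.7 CPM (counts scaled to library size with TMM factors) in WT replicates 1, 2 and 3 and at 30.4, 33.5 and 36.2 CPM in KO replicates 1, 2 and 3. Every KO lesion lay below every WT lesion, with a log2 fold change of -0.57 (SE 0.14). By edgeR's quasi-likelihood test the unadjusted p was 0.00584 and the adjusted p 0.321. By the DESeq2 Wald test the adjusted p was 0.00685. The libraries also differed in cell type markers. WT replicate 2 stood apart by its neutrophil markers, whose summed level was 9845 CPM against 479 and 214 CPM in the other WT lesions and 37.3 to 185 CPM in KO lesions. Its general leukocyte markers summed to 1950 CPM, against 364 to 605 CPM in the other 5 lesions. Skeletal muscle markers reached 26470 and 28510 CPM in WT replicates 1 and 3 and 4.52 to 14.7 CPM elsewhere. Of the 12 marker lists, none had a marker at 0 in all libraries, and the summed epithelial and stromal markers of the endometrium were detected in every lesion.

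Genes of both classes fell in KO lesions by the threshold of the study, though neither classical class I gene did, and no member rose. Of the 55 genes, 36 had enough counts to be tested, and the fitted log2 fold change of all 36 was below 0, against 48.6% of the 18177 genes tested. With the study's threshold, an unadjusted p under 0.05 and a log2 fold change beyond 1 in size, 16 of the 36 fell in KO lesions against 5.85% of all genes, and 0 rose against 3.1%. At an unadjusted p under 0.05 alone, 23 were lower against 8.16% of all genes and 0 were higher against 6.55%. No member reached an adjusted p under 0.05 (0.321 to 0.762 after the Benjamini-Hochberg adjustment of edgeR's quasi-likelihood p-values), and 0.0055% of all genes did. By DESeq2, 4 members had an adjusted p under 0.05, namely H2-Eb1 (0.0359), H2-Q4 (0.0369), Tap1 (0.0464) and H2-Ab1 (0.0491), against 3.9% of all genes that were lower by that test. The median log2 fold change was -1.11 over the 36 and 0.014 over all genes tested. In 25 of the 36, all WT lesions were above all KO lesions, against 8.74% of all genes, and in 0 of the 36 the reverse held, against 10.7%. For a single gene the exact two-sided permutation test over 3 against 3 lesions cannot give a p below 0.1.

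The number of calls rested on single lesions. Without WT replicate 2, 0 of the 36 passed the study's threshold (5.86% of all genes then did), and 7 were lower at an unadjusted p under 0.05 (9.64%): Psmb8, Psmb9, Tap1, H2-Q4, H2-T23, H2-Ab1 and H2-Eb1. Without KO replicate 2, H2-Q6 was the 1 gene that passed, and without KO replicate 1, 4 genes passed. All 36 fold changes stayed below 0 in each of these fits. WT replicate 2 was the highest of all libraries for 34 of the 36 (24.2% of all genes), and KO replicate 2 was the lowest for 29 (20.2%). In these bulk libraries, fewer cells of a type and less RNA per cell cannot be told apart.

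**Figure D2:**
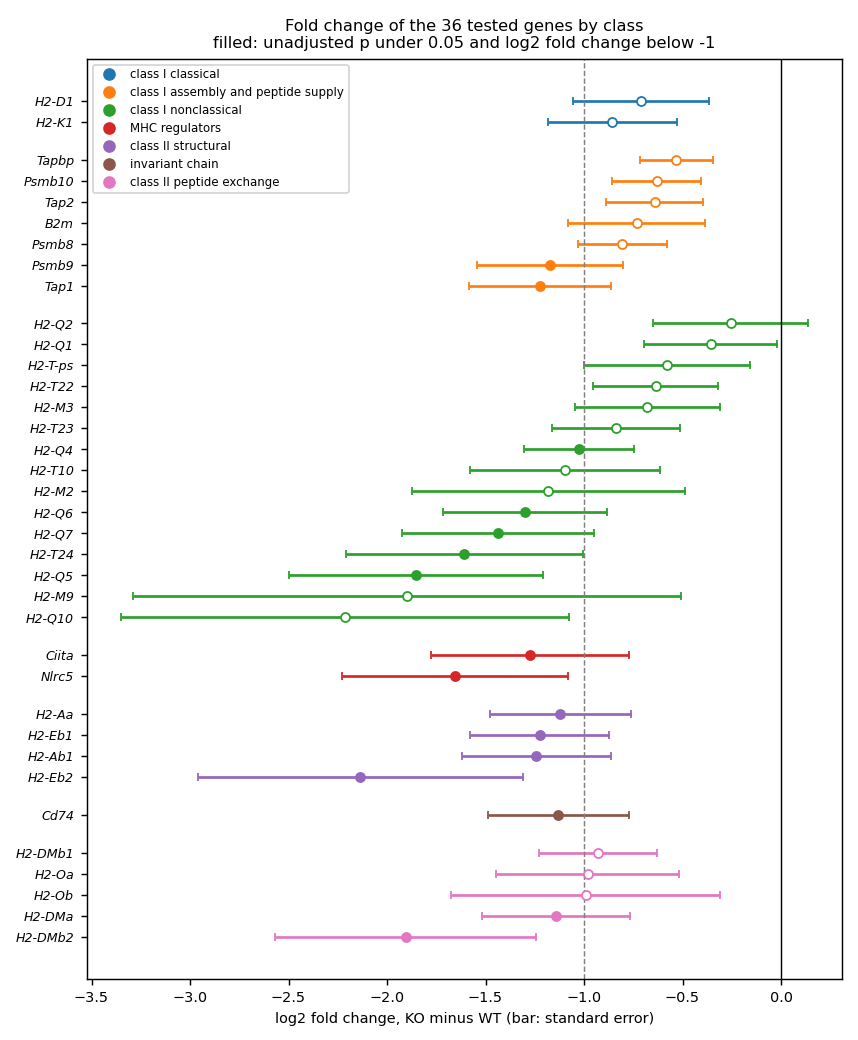
Log2 fold change (KO minus WT) with its standard error for the 36 tested genes, grouped and coloured by class; filled points passed the study's threshold. All 36 points lie below 0, from -2.21 for H2-Q10 to -0.26 for H2-Q2, and all 4 class II structural genes are filled while neither classical class I gene is.

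The classical class I heavy chains, H2-K1 and H2-D1, present peptides to CD8 T cells and were among the most abundant members. H2-K1 was at 940, 1429 and 870 CPM in WT replicates 1, 2 and 3 and at 519, 442 and 828 CPM in KO replicates 1, 2 and 3. The groups did not overlap, although KO replicate 3 came close to WT replicate 3. Its log2 fold change was -0.86 (SE 0.33, adjusted p = 0.332 by edgeR's quasi-likelihood test). H2-D1 was at 1104, 1896 and 1082 CPM in WT lesions and at 771, 609 and 1113 CPM in KO lesions. Here KO replicate 3 exceeded WT replicates 1 and 3, and the log2 fold change of -0.71 (SE 0.34) did not pass (adjusted p = 0.37). B2m, the shared light chain, was at 1354, 2184 and 1496 CPM in WT lesions and at 812, 758 and 1461 CPM in KO lesions. Its KO replicate 3 exceeded WT replicate 1 alone, with a log2 fold change of -0.73 (SE 0.35, adjusted p = 0.368). The log2 fold changes without WT replicate 2 were -0.60 for H2-K1 (adjusted p = 0.446), -0.39 for H2-D1 (adjusted p = 0.565) and -0.49 for B2m (adjusted p = 0.545).

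Of the genes that make and load class I peptides, Tap1 and Psmb9 passed the study's threshold and Tap2, Tapbp, Psmb8 and Psmb10 were lower at an unadjusted p under 0.05 with smaller changes. Tap1 and Tap2 encode the paired chains of the peptide transporter. Tap1 was at 60.9, 121 and 56.0 CPM in WT lesions and at 34.1, 25.5 and 42.5 CPM in KO lesions, with no overlap and a log2 fold change of -1.22 (SE 0.36, adjusted p = 0.321). Tap2 was at 50.5, 73.4 and 42.5 CPM in WT lesions and at 36.2, 29.2 and 41.3 CPM in KO lesions, a log2 fold change of -0.64 (SE 0.25, adjusted p = 0.332). Its highest KO lesion lay just under its lowest WT lesion. Tapbp, which encodes tapasin, was at 268, 339 and 236 CPM in WT lesions and at 186, 180 and 217 CPM in KO lesions. That was the smallest change in this class, with a log2 fold change of -0.53 (SE 0.18, adjusted p = 0.328). For the pair that passed, leaving out WT replicate 2 gave -0.78 for Tap1 (adjusted p = 0.246) and -0.74 for Psmb9 (adjusted p = 0.317). Tap2, Tapbp, Psmb8 and Psmb10 were then at -0.39, -0.37, -0.58 and -0.47. The gene models of Tap1 and Psmb9 overlap on opposite strands and those of Tapbp and Zbtb22 on the same strand. Models on the opposite strand also overlap Psmb8, Tap2, Tapbp, H2-Q4, H2-T10, H2-T22, H2-T-ps, H2-DMa, H2-Oa, Ciita and Nlrc5. H2-T-ps and Cd74 are also overlapped on the same strand. Whether the counting used strand is not given in the sources used here.

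Psmb8, Psmb9 and Psmb10 encode the catalytic subunits that replace the constitutive subunits Psmb5, Psmb6 and Psmb7 in the immunoproteasome. Psmb9 was at 27.3, 54.2 and 25.7 CPM in WT lesions and at 14.0, 12.5 and 21.1 CPM in KO lesions, a log2 fold change of -1.17 (SE 0.37, adjusted p = 0.328). Psmb8 was at 74.1, 109 and 70.4 CPM in WT lesions and at 52.2, 38.7 and 54.0 CPM in KO lesions, a log2 fold change of -0.81 (SE 0.23, adjusted p = 0.321). Both kept the groups apart, and in both KO replicate 3 was the highest KO lesion. Psmb10 was at 41.8, 53.2 and 37.0 CPM in WT lesions and at 29.8, 21.6 and 33.9 CPM in KO lesions, a log2 fold change of -0.63 (SE 0.23, adjusted p = 0.328). The constitutive subunits did not pass in either direction, with log2 fold changes of 0.26 for Psmb5 (adjusted p = 0.513), 0.16 for Psmb6 (adjusted p = 0.563) and -0.07 for Psmb7 (adjusted p = 0.869). Within each lesion, the ratio of Psmb8 to Psmb5 in CPM per kilobase of exon was 0.263, 0.537 and 0.279 in WT replicates 1, 2 and 3 and 0.148, 0.138 and 0.216 in KO replicates 1, 2 and 3. The ratio of Psmb9 to Psmb6 was 0.136, 0.321 and 0.125 in WT lesions and 0.0593, 0.0601 and 0.105 in KO lesions. In these 2 pairs all WT lesions were above all KO lesions, whereas the ratio of Psmb10 to Psmb7 overlapped, at 0.525 to 1.17 in WT lesions and 0.358 to 0.643 in KO lesions.

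The nonclassical class I genes present restricted peptides or none, many to natural killer and unconventional T cells, and 15 of the 29 were tested. H2-Q4, H2-Q5, H2-Q6, H2-Q7 and H2-T24 fell by the study's threshold, H2-T23 was lower at p alone and the other 9 did not pass. The median log2 fold change of the 15 was -1.10, against 0.014 for all genes. Over the 14 with a mean of at least 1 CPM it was -1.06, and -0.53 without WT replicate 2. Several of these genes are near-identical copies whose reads can be misassigned. Of the distinct 50-base stretches of the annotated transcripts, 36.4% in H2-Q5, 32.0% in H2-Q6, 26.4% in H2-Q7, 34.5% in H2-T22, 32.9% in H2-T10, 29.4% in H2-T-ps, 21.8% in H2-Q4 and 19.0% in H2-Q10 also occur in other genes, against 12.8% in H2-D1 and 9.63% in H2-K1. The values of these single copies are therefore uncertain.

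H2-T23 encodes Qa-1, which displays leader peptides of other class I chains to the inhibitory receptor of natural killer cells. H2-T23 was at 110, 214 and 97.5 CPM in WT lesions and at 74.9, 71.3 and 89.3 CPM in KO lesions, with no overlap and a log2 fold change of -0.84 (SE 0.32, adjusted p = 0.332). H2-Q4 was at 96.3, 158 and 101 CPM in WT lesions and at 56.9, 43.6 and 74.2 CPM in KO lesions. The lowest WT lesion was well above the highest KO lesion, and the log2 fold change was -1.02 (SE 0.28, adjusted p = 0.321 by edgeR's quasi-likelihood test). H2-Q6 and H2-Q7 encode Qa-2 molecules. H2-Q7 was at 16.5, 31.8 and 14.4 CPM in WT lesions and at 7.75, 3.93 and 11.5 CPM in KO lesions, a log2 fold change of -1.44 (SE 0.49, adjusted p = 0.328). H2-Q6 was at 11.5, 17.8 and 8.52 CPM in WT lesions and at 5.14, 3.02 and 7.19 CPM in KO lesions, a log2 fold change of -1.30 (SE 0.42, adjusted p = 0.328). Both were lowest in KO replicate 2 and highest in WT replicate 2. H2-T24 was at 7.88, 34.2 and 9.87 CPM in WT lesions and at 6.03, 4.43 and 6.56 CPM in KO lesions, a log2 fold change of -1.61 (SE 0.60, adjusted p = 0.332), and most of its WT mean came from WT replicate 2. H2-Q5, annotated as a polymorphic pseudogene, was at 2.37, 5.16 and 1.92 CPM in WT lesions and at 0.877, 0.338 and 1.40 CPM in KO lesions, a log2 fold change of -1.85 (SE 0.64, adjusted p = 0.328). Leaving out WT replicate 2 gave log2 fold changes of -0.40 for H2-T23 (adjusted p = 0.336) and -0.64 for H2-T24 (adjusted p = 0.367).

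The nonclassical genes that did not pass had WT and KO ranges that overlapped, apart from H2-T10. H2-T22 and H2-T10 are ligands of certain gamma delta T cells. H2-T22 was at 73.0, 135 and 77.1 CPM in WT lesions and at 50.6, 51.6 and 81.2 CPM in KO lesions (adjusted p = 0.378), and H2-T10 at 3.22, 6.98 and 2.65 CPM in WT lesions and at 2.16, 1.27 and 2.56 CPM in KO lesions (adjusted p = 0.352). H2-M3, which presents N-formylated peptides of bacteria and mitochondria, was at 11.7, 24.4 and 14.1 CPM in WT lesions and at 8.32, 8.48 and 14.6 CPM in KO lesions (adjusted p = 0.404). KO replicate 3 lay above at least 1 WT lesion for both H2-T22 and H2-M3. H2-Q10, a secreted class I chain made mainly in liver, was at 1.64, 15.9 and 1.56 CPM in WT lesions and at 0.807, 0.616 and 2.69 CPM in KO lesions (adjusted p = 0.387). H2-M2 was at 0.683, 1.19 and 4.14 CPM in WT lesions and at 0.877, 0.795 and 0.979 CPM in KO lesions (adjusted p = 0.431). In each of these last 2 genes a single WT lesion was several times higher than every other lesion. H2-Q2 was at 5.47, 4.19 and 10.2 CPM in WT lesions and at 6.74, 5.74 and 4.15 CPM in KO lesions (adjusted p = 0.762), H2-Q1 at 1.22, 1.40 and 1.20 CPM in WT lesions and at 0.842, 0.755 and 1.38 CPM in KO lesions (adjusted p = 0.61), and H2-T-ps at 1.73, 3.69 and 1.60 CPM in WT lesions and at 1.21, 1.67 and 1.81 CPM in KO lesions (adjusted p = 0.512).

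The coactivators of both classes fell by the study's threshold. Nlrc5 was at 19.9, 57.4 and 17.5 CPM in WT lesions and at 8.12, 6.71 and 15.3 CPM in KO lesions. The groups did not overlap, but KO replicate 3 was near WT replicate 3, and the log2 fold change was -1.66 (SE 0.57, adjusted p = 0.328 by edgeR's quasi-likelihood test). Ciita was at 16.0, 33.1 and 15.0 CPM in WT lesions and at 7.47, 4.83 and 14.2 CPM in KO lesions, a log2 fold change of -1.28 (SE 0.50, adjusted p = 0.334 by the same test). Without WT replicate 2, the log2 fold changes were -0.90 for Nlrc5 (adjusted p = 0.389) and -0.81 for Ciita (adjusted p = 0.486). The ratio of H2-K1 to Nlrc5 per kilobase was 137, 72.0 and 143.5 in WT lesions and 185, 190 and 157 in KO lesions, every KO lesion above every WT lesion, whereas the ratio of H2-Aa to Ciita overlapped, at 50.3 to 69.0 in WT lesions and 54.6 to 75.3 in KO lesions.

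All 4 tested class II chain genes fell by the study's threshold, against 5.85% of all genes, and none of the 4 passed it without WT replicate 2. H2-Aa and H2-Ab1 encode the alpha and beta chains of the I-A molecule, H2-Eb1 the beta chain of I-E. H2-Ab1 was at 276, 478 and 270 CPM in WT replicates 1, 2 and 3 and at 143, 89.3 and 201 CPM in KO replicates 1, 2 and 3. Every KO lesion lay below every WT lesion, with a log2 fold change of -1.24 (SE 0.38, adjusted p = 0.325 by edgeR's quasi-likelihood test). H2-Aa was at 381, 664 and 413 CPM in WT lesions and at 217, 145 and 309 CPM in KO lesions, a log2 fold change of -1.12 (SE 0.36, adjusted p = 0.328 by the same test). H2-Eb1 was at 320, 560 and 323 CPM in WT lesions and at 172, 113 and 230 CPM in KO lesions, a log2 fold change of -1.23 (SE 0.35, adjusted p = 0.321 by the same test). For these 3 chains the order of the KO lesions was the same, with KO replicate 2 lowest and KO replicate 3 highest. The KO mean was 42.3% of the WT mean for H2-Ab1, 46.0% for H2-Aa and 42.7% for H2-Eb1. H2-Eb2, a further beta chain gene, was at 0.939, 4.23 and 1.30 CPM in WT lesions and at 0.825, 0.159 and 0.479 CPM in KO lesions, a log2 fold change of -2.14 (SE 0.83, adjusted p = 0.332) and of -1.19 without WT replicate 2 (adjusted p = 0.497). H2-Ea-ps, the pseudogene that C57BL/6 mice carry in place of the I-E alpha chain, was at 0 counts in all libraries.

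Cd74, the invariant chain, also fell. Cd74 was measured at 774, 1265 and 810 CPM in WT lesions and at 420, 275 and 607 CPM in KO lesions, with no overlap and a log2 fold change of -1.13 (SE 0.36, adjusted p = 0.328 by edgeR's quasi-likelihood test). The ratio of Cd74 to H2-Ab1 per kilobase was nearly the same in all lesions, at 4.05 to 4.59 in WT lesions and 4.50 to 4.70 in KO lesions. Without WT replicate 2, the log2 fold changes were -0.87 for Cd74 (adjusted p = 0.363), -0.83 for H2-Aa (adjusted p = 0.362), -0.92 for H2-Ab1 (adjusted p = 0.34) and -0.91 for H2-Eb1 (adjusted p = 0.301).

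H2-DMa with H2-DMb1 or H2-DMb2 forms the peptide exchanger, and H2-Oa with H2-Ob forms its inhibitor, which is found mainly in B cells. H2-DMa was at 29.3, 46.4 and 28.8 CPM in WT lesions and at 14.8, 9.50 and 23.09 CPM in KO lesions, a log2 fold change of -1.14 (SE 0.38, adjusted p = 0.328). H2-DMb1 was at 34.4, 51.0 and 31.7 CPM in WT lesions and at 19.1, 14.8 and 27.6 CPM in KO lesions, a log2 fold change of -0.93 (SE 0.30, adjusted p = 0.328). Neither overlapped between the groups, and the first passed the study's threshold while the second did not. H2-DMb2 was at 2.46, 9.77 and 2.88 CPM in WT lesions and at 1.46, 0.755 and 1.81 CPM in KO lesions, a log2 fold change of -1.91 (SE 0.66, adjusted p = 0.328) and of -0.99 without WT replicate 2 (adjusted p = 0.409). H2-DMb1 shares 22.7% of its 50-base stretches with H2-DMb2, so their counts are not fully separate. H2-Oa was at 1.37, 3.20 and 1.32 CPM in WT lesions and at 0.737, 0.993 and 1.25 CPM in KO lesions (adjusted p = 0.367), and H2-Ob at 2.09, 7.43 and 1.88 CPM in WT lesions and at 1.09, 3.02 and 1.63 CPM in KO lesions (adjusted p = 0.493). H2-Ob overlapped between the groups, and its highest KO lesion was KO replicate 2, unlike the other class II genes.

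**Figure D3:**
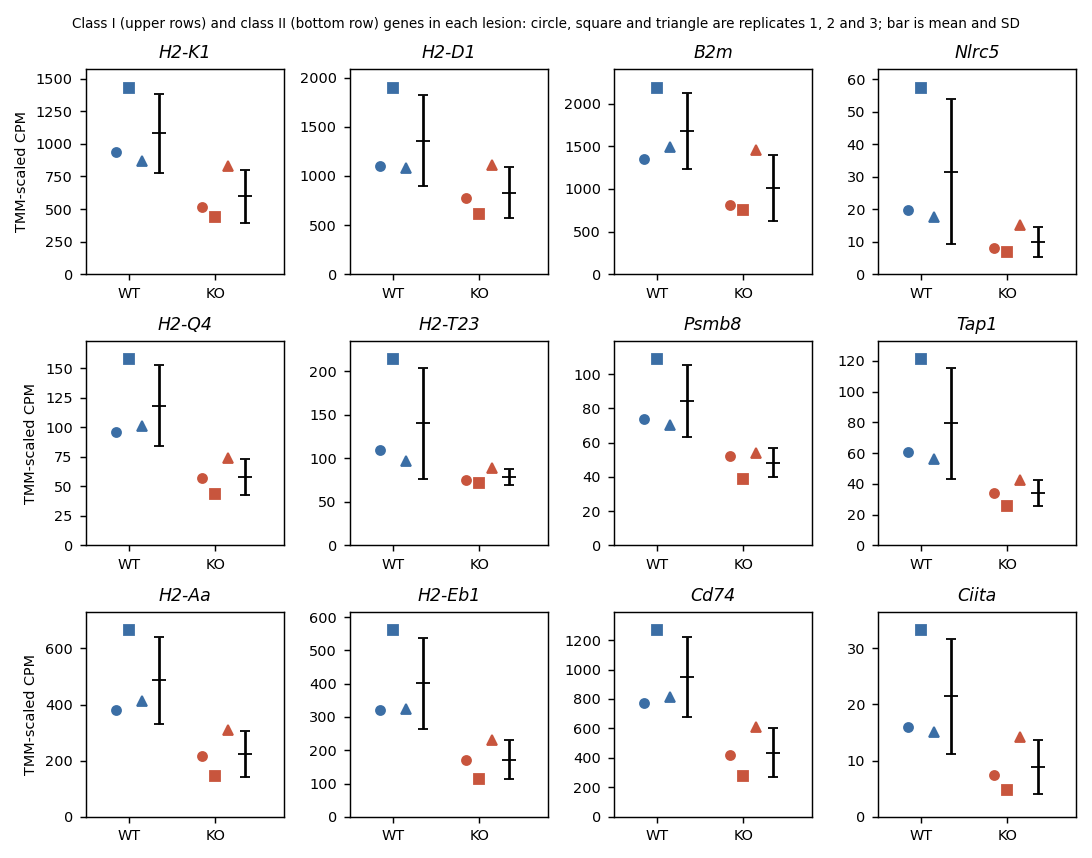
TMM-scaled CPM of 12 genes in each lesion (blue, WT; red, KO; circle, square and triangle, replicates 1, 2 and 3), with the mean and SD of each group as black bars on axes that start at 0. WT replicate 2 is the highest point in each panel, KO replicate 3 is the highest KO point, and H2-D1 and B2m overlap between the groups.

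The ratio of summed class II to summed classical class I chains was lower in every KO lesion than in every WT lesion. Summed per kilobase of exon, H2-K1 and H2-D1 were at 748, 1222 and 716 CPM per kilobase in WT lesions and at 476, 387 and 714 CPM per kilobase in KO lesions. H2-Aa, H2-Ab1 and H2-Eb1 together were at 372, 649 and 380 CPM per kilobase in WT lesions and at 201, 131 and 278 CPM per kilobase in KO lesions. Their ratio, class II to class I, was 0.498, 0.531 and 0.531 in WT lesions and 0.422, 0.338 and 0.389 in KO lesions. The KO mean ratio was 73.7% of the WT mean, and 74.5% without WT replicate 2. That lesion had the highest sums of both classes, but its ratio was like that of WT replicate 3. For single genes, the ratio of H2-Aa to H2-K1 overlapped, at 0.314 to 0.367 in WT lesions and 0.253 to 0.323 in KO lesions. The ratio of nonclassical to classical class I genes overlapped, at 0.168 to 0.196 in WT lesions and 0.154 to 0.188 in KO lesions. No test was made of these sums and ratios, which were chosen after earlier results were known.

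**Figure D4:**
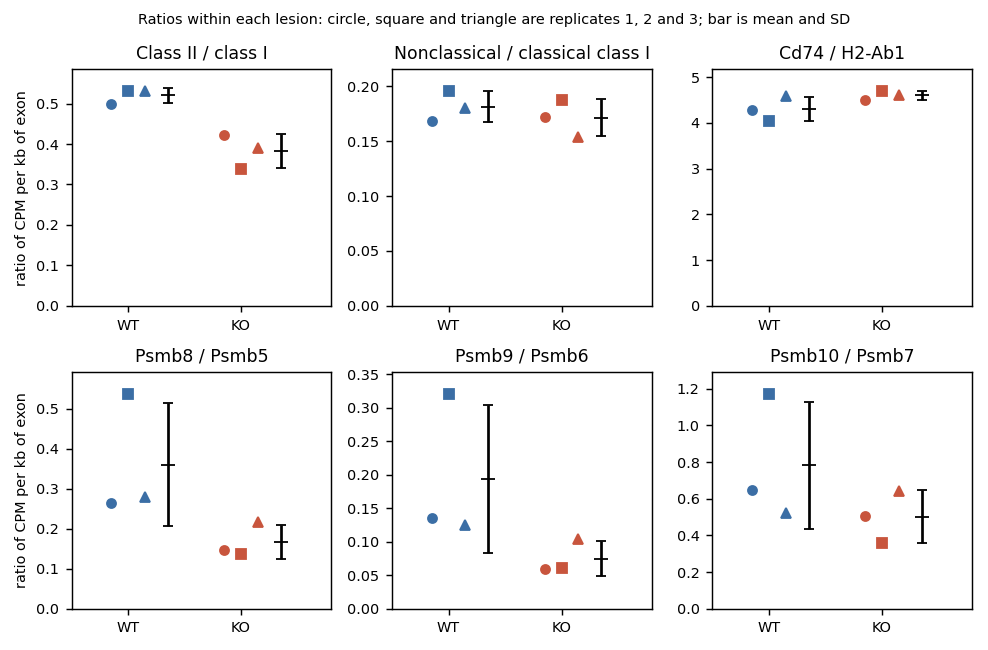
Ratios of CPM per kilobase of exon within each lesion (blue, WT; red, KO; symbols are replicates 1, 2 and 3), with the mean and SD of each group as black bars on axes that start at 0. WT lesions lie above KO lesions for class II to class I, Psmb8 to Psmb5 and Psmb9 to Psmb6, and the groups overlap for nonclassical to classical class I, Psmb10 to Psmb7 and Cd74 to H2-Ab1.

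KO lesions were not uniform. Over the 35 genes with a mean of at least 1 CPM, KO replicate 3 was the highest KO lesion in 32 and KO replicate 2 the lowest in 29. Relative to the mean of WT replicates 1 and 3, KO replicate 3 was at 91.5% for H2-K1, 102% for B2m, 91.5% for Ciita, 77.8% for H2-Aa and 76.7% for Cd74, while the mean of KO replicates 1 and 2 was at 53.1% for H2-K1, 55.1% for B2m, 39.6% for Ciita, 45.5% for H2-Aa and 43.8% for Cd74. For H2-Aa and Cd74, KO replicate 3 was below both of these WT lesions, whereas for B2m and H2-D1 it exceeded at least 1 of them. All 55 genes together took 0.582%, 0.988% and 0.585% of the counts in WT lesions and 0.367%, 0.312% and 0.580% in KO lesions, where KO replicate 3 was level with WT replicates 1 and 3. Markers of other cells also set KO replicate 3 apart from KO replicates 1 and 2. In KO replicate 3 against KO replicates 1 and 2, the summed markers were at 6181 against 2768 and 2008 CPM for endometrial stroma, 510 against 266 and 190 CPM for endothelium, 3280 against 391 and 718 CPM for adipocytes and 1455 against 2850 and 2671 CPM for endometrial epithelium. Their part in the levels of this lesion was not tested.

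Markers of leukocytes differed between the same libraries. Macrophage markers (9 genes, summed) were at 1192, 2765 and 1195 CPM in WT lesions and at 792, 572 and 1422 CPM in KO lesions, highest in WT replicate 2 and lowest in KO replicate 2 like most members. The B cell list was at 20.6 to 103 CPM in WT lesions and 14.0 to 18.3 CPM in KO lesions, and the T cell list at 28.7 to 73.5 CPM and 6.56 to 20.9 CPM. Of these lists, 0 of 9 macrophage, 5 of 7 B cell and 6 of 7 T cell markers fell by the study's threshold, against 5.85% of all genes, and without WT replicate 2 the counts were 0, 2 and 1. The dendritic cell list, with 1 of 9 that fell, was at 56.2 to 59.9 CPM in WT lesions and 38.7 to 64.9 CPM in KO lesions. Itgax, which macrophages also express, made up much of that sum, at 38.6, 15.9 and 35.8 CPM in WT lesions and 36.4, 25.1 and 36.9 CPM in KO lesions. The other 8 dendritic markers, summed apart after the values were seen, were at 21.3, 40.4 and 22.1 CPM in WT lesions and 15.7, 13.6 and 28.0 CPM in KO lesions, highest in WT replicate 2. Set against the macrophage markers, the 3 class II chains had ratios of 0.820, 0.616 and 0.842 in WT lesions. Those of KO lesions were 0.670, 0.606 and 0.520. The groups overlapped in WT replicate 2 alone, with WT replicates 1 and 3 above every KO lesion. The ratio of H2-Aa to Ptprc, the pan-leukocyte gene CD45, was 21.0, 4.91 and 26.2 per kilobase in WT lesions and 22.2, 21.6 and 20.7 in KO lesions. Apart from WT replicate 2 these ratios lay in a narrow range in both groups. Against the summed general leukocyte markers, the class II ratios were 1.705, 0.873 and 2.025 in WT lesions. In KO lesions they were 1.052, 0.953 and 1.223. The groups again overlapped in WT replicate 2 alone, with WT replicates 1 and 3 above every KO lesion. The part of these cell types in the result was not tested.

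Genes of the pathway outside the H2- region and its named partners were examined from lists of 61 symbols, some of them aliases. Of these genes 57 were tested, 7 fell by the study's threshold and 0 rose, against 5.85% and 3.1% of all genes. Without WT replicate 2, KO replicate 1 or KO replicate 2 the number that fell was 3, and without KO replicate 3 it was 12. The proteins that bind the X and Y boxes did not pass, with 0 of 7 at an unadjusted p under 0.05 and a median log2 fold change of 0.003. Rfx5, the subunit of the X1 complex that is lost in a form of bare lymphocyte syndrome, was at 16.2, 20.9 and 16.0 CPM in WT lesions and at 20.7, 20.0 and 17.9 CPM in KO lesions (adjusted p = 0.679). Irf1, an interferon-induced activator of class I and immunoproteasome genes, was at 73.4, 147 and 76.0 CPM in WT lesions and at 52.2, 39.5 and 59.2 CPM in KO lesions, a log2 fold change of -0.97 (SE 0.32, adjusted p = 0.328) and of -0.57 without WT replicate 2 (adjusted p = 0.303). The groups did not overlap, and KO replicate 2 was again the lowest. Irf8, a factor of myeloid and dendritic cells, had a log2 fold change of -0.74 (adjusted p = 0.379) and of -0.31 without WT replicate 2 (adjusted p = 0.627). Ifng itself was at 0.0641 to 0.225 CPM and had too few counts to be tested.

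Genes of peptide loading and processing had fold changes in both directions. Tapbpl, a relative of tapasin that edits class I peptides, was at 26.0, 33.1 and 26.5 CPM in WT lesions and at 19.4, 17.4 and 18.2 CPM in KO lesions, a log2 fold change of -0.64 (SE 0.15, adjusted p = 0.321). Its KO lesions lay close together and all below WT. Erap1, the peptidase that trims class I peptides, was at 84.8 to 92.2 CPM in WT lesions and 83.0 to 91.1 CPM in KO lesions (adjusted p = 0.871). In the same list 3 of 9 genes were higher in KO lesions at an unadjusted p under 0.05, against 6.55% of all genes. They were Calr (log2 fold change 0.71), Sec61b (0.48) and Sec61g (0.44), named here because of their values. They serve protein folding and entry in the endoplasmic reticulum in general. Without WT replicate 2 the values were 0.61, 0.50 and 0.42, and Calr no longer passed (unadjusted p = 0.074 by edgeR's quasi-likelihood test). Of the proteasome activators, Psme2 was lower (log2 fold change -0.40, SE 0.12, adjusted p = 0.321) and Psme1 did not pass (-0.14, adjusted p = 0.528). Among the endosomal proteases and reductases that prepare class II peptides, Ctss, which degrades the invariant chain, had a log2 fold change of -0.36 (adjusted p = 0.445). Ifi30, the thiol reductase, was at -0.75 (adjusted p = 0.378). The values without WT replicate 2 were -0.27 for Ctss and -0.29 for Ifi30. Of the 8 tested genes in that list only Ctsb, named because of its value, had an unadjusted p under 0.05, and it was higher in KO lesions (0.88, adjusted p = 0.328). Ptprc was at 87.4, 652 and 76.2 CPM in WT lesions and at 47.1, 32.3 and 72.1 CPM in KO lesions, with WT replicate 2 far above every other lesion. Its log2 fold change was -2.43 (adjusted p = 0.332) and -0.69 without WT replicate 2 (adjusted p = 0.44).

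All 7 calls in these lists were among the 10 receptors on T and natural killer cells, most of which bind MHC molecules. Of all genes, 5.85% were called lower. The median log2 fold change of that list was -1.87. Its values ran from -5.11 to -0.87, and from -2.01 for Klrc1 to -0.34 for Klrd1 without WT replicate 2. Of the 10, 3 passed without WT replicate 2 (5.86% of all genes then did), namely Klrc1 and both CD8 coreceptor genes. Lilrb4a, an inhibitory receptor of myeloid cells in the same list that is also named because of its values, was at 1.56, 64.4 and 0.427 CPM in WT lesions and at 0.737, 0.119 and 1.06 CPM in KO lesions. It was high in WT replicate 2 alone, and the other lesions of the groups overlapped. The 7 calls also include the CD8 coreceptor genes, named because of their values, for which WT replicate 2 was close to another WT lesion. Cd8b1 was at 1.90, 2.34 and 1.97 CPM in WT lesions and at 0.281, 0.477 and 0.709 CPM in KO lesions (log2 fold change -2.08, SE 0.41, adjusted p = 0.321). Cd8a was at 1.94, 2.00 and 1.07 CPM in WT lesions and at 0.561, 0.278 and 0.584 CPM in KO lesions (-1.81, SE 0.44, adjusted p = 0.321).

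The 19 untested genes held 0 to 9 counts each over all 6 libraries, and 13 of them were at 0 in every library. Most were nonclassical genes of the M region. H2-Ke6, which encodes the steroid dehydrogenase Hsd17b8 and is no MHC molecule despite its symbol, was also among them, and 70.5% of its 50-base stretches occur in an overlapping gene model. H2-M9 was tested but its mean was 0.355 CPM.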

How the data were processed

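Bulk RNA-seq libraries of 3 WT and 3 Dnmt3a KO ectopic lesions were analysed, grouped by the genotype in the sample labels. The authors deposited whole-number, unnormalized read counts for each gene, made from poly(A) libraries of a stranded kit. The submitters' processing notes name Trimmomatic, featureCounts, DESeq2 and GRCm39, whereas the paper names GRCm38, so no gene coordinates are printed beyond RefSeq promoter windows with their own build. The aligner is not given in the sources used here. Of 56884 gene identifiers, 51948 matched GENCODE M21 (GRCm38) without their version, and 35 with it. Identifiers with no symbol held 3.04% to 3.56% of the counts, and gene lengths and shared 50-base stretches come from the same annotation, so both may differ from the gene models counted.

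The counts, 45370342 to 57239184 per library, were tested in edgeR 4.0.16 (R 4.3.3) with filterByExpr, TMM scaling and a quasi-likelihood fit with genotype as its only term, over 18177 genes with Benjamini-Hochberg adjustment. A gene was called by the study's threshold, an unadjusted p under 0.05 with a log2 fold change above 1 or below -1. The common biological coefficient of variation was 44.2%. Permutation tests were exact and two-sided. CPM values carry the TMM factors and no pseudocount. Counts hold no molecular identifiers, and the labels do not tie a lesion to an animal, so p-values measure the spread between these lesions.

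Every member with a mean of at least 1 CPM is named with its values, and fixed genes of the pathway are named whatever theirs, except 1 that is not reported here. The members, classes, pathway lists and marker lists were chosen with earlier results of these data known, and the ratios after seeing the data. The alternatives were DESeq2's size factors, upper quartile scaling, a filter of 1 count in total or of 10 counts in every library, the DESeq2 1.42.0 Wald test on the filtered genes, a block for the replicate number, voom (limma 3.58.1) weighted by library quality, and each lesion left out. The fit of KO against WT was tested on simulated counts of 17818 genes, where 78.5% of 200 genes changed by 3 on the log2 scale were recovered with 9 false calls at an adjusted p under 0.05.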

Additional observations from a re-analysis of the deposited data

How the results depend on the processing

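The number of genes of the MHC and antigen processing called lower in KO lesions was 16. It was 14 to 17 under DESeq2's size factors, upper quartile scaling, either filter and the DESeq2 Wald test, and 12 with voom quality weights. With 1 lesion left out it ranged from 0 to 20, at 0 without WT replicate 2, 1 without KO replicate 2 and 4 without KO replicate 1, and the cause was not tested. No gene of the MHC and antigen processing was called higher in any fit, also at an unadjusted p under 0.05. With the replicate number as a block, 2 genes were called lower, H2-Q4 and H2-Eb1. The numbers do not pair the lesions, since the deviations of same-numbered lesions correlated at 0.0318, -0.152 and -0.202 and no WT lesion correlated best with the KO lesion of its own number. Of the 57 pathway genes outside these members, 7 were called lower in KO lesions, 4 with the replicate block and 3 to 12 with 1 lesion left out. None was called higher, against 2 with voom quality weights and 0 to 1 with 1 lesion left out. The log2 fold change of H2-Q2, -0.26 in all lesions, ranged from -0.50 to 0.17 with 1 lesion left out and reversed without WT replicate 3. Without WT replicate 2 the median log2 fold change moved to -0.53 for nonclassical class I genes and to -0.64 for all named members. Of 454 values of single named members, 376 kept their direction and side of the threshold, 67 kept their direction but no longer passed, 10 newly passed and 1 reversed. Upper quartile scaling moved the median of all genes to 0.109. Dnmt3a kept its direction in every fit and passed the study's threshold in none, as its fold change was too small. With 3 lesions a group, changes of the size seen here did not pass adjustment over all genes by edgeR's quasi-likelihood test. The adjusted p of members was 0.321 or above with TMM scaling in the fit used above. With upper quartile scaling it was 0.28 for H2-Q4, Psmb8 and Tap1 by the same test.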

Other observations

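Of 9 listed MHC-like genes outside the H2 region, named here because of their values, 8 were tested, 4 had a lower and 4 a higher fitted level in KO lesions, and 0 had an unadjusted p under 0.05 by edgeR's quasi-likelihood test. Raet1e, a ligand of the NKG2D receptor, passed the study's threshold as higher in KO lesions when WT replicate 2 was left out (log2 fold change 1.22, adjusted p = 0.137). Cd1d1, which presents lipids to natural killer T cells, was at 25.3, 45.8 and 23.6 CPM in WT replicates 1, 2 and 3 and at 14.8, 24.3 and 108 CPM in KO replicates 1, 2 and 3, so that KO replicate 3 stood above every other lesion. Mr1, which presents vitamin B metabolites to mucosal-associated invariant T cells, was at 36.7, 32.7 and 36.6 CPM in WT lesions and at 41.4, 53.1 and 37.8 CPM in KO lesions, every KO lesion above every WT lesion (log2 fold change 0.32, SE 0.17, adjusted p = 0.387 by the same test). Fcgrt, the neonatal Fc receptor chain that also pairs with beta-2 microglobulin, was at 111, 192 and 107 CPM in WT lesions and at 70.2, 58.4 and 193 CPM in KO lesions, which overlapped.

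The lesions within a group also differed in class II relative to other leukocyte genes. Against the summed T cell markers, the 3 class II chains had ratios of 32.7, 23.2 and 35.1 in WT lesions and 53.4, 52.9 and 35.4 in KO lesions, with KO replicate 3 only just above WT replicate 3. Against the 8 dendritic cell markers other than Itgax, the ratios were 45.9, 42.2 and 45.5 in WT lesions and 34.0, 25.5 and 26.4 in KO lesions. These ratios were chosen after seeing the data and were not tested.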
